A study of Mus musculus with 12 samples.

Results

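The comparison described here is PA against BSA in primary hepatocytes with a G3bp1 knockout. Its members are 6 of the 12 RNA-seq libraries of the study, 3 with PA (HKO_PA 1 to 3) and 3 with BSA (HKO_BSA 1 to 3), and it covers the 9476 of 54532 genes whose mean over these 6 libraries was at least 1 FPKM (fragments per kilobase of gene length, scaled to library size). All 6 came from livers of 6-week-old mice with a hepatocyte-specific G3bp1 knockout (HKO), so the BSA libraries carry the knockout too. The other 6 libraries, used for comparison between genotypes, for levels set beside those of HKO and in fits that are named as using them, came from G3bp1-Flox (Flox) hepatocytes with PA or with BSA, again 3 each. The labels do not spell out PA or BSA, and dose, duration, the Cre line behind the knockout and the number of mice are not given in these sources. Neither is it said that the 3 libraries of a group came from separate mice, so a p-value here reflects the spread among these libraries only, which may be technical. The series text gives the aim as finding how G3BP1 affects NASH.

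G3BP1 is an RNA-binding protein that nucleates stress granules, cytoplasmic assemblies that hold untranslated mRNA when translation is blocked. Hepatocytes under a lipid load store triglyceride in droplets coated by perilipins, burn fatty acids under the control of the nuclear receptor PPARA, and can show stress of the endoplasmic reticulum. Liver cells under such stress can also release chemokines, small secreted proteins that draw monocytes and neutrophils, and many chemokine genes are targets of the transcription factor NF-kB.

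The 12 libraries held 15.02 to 18.42 M reads in genes (M, 10 to the power of 6). G3bp1 (ENSMUSG00000018583, chromosome 11, 55469685 to 55504838, plus strand) was low in all 6 libraries, at 7.03, 7.39 and 8.09 FPKM in HKO_PA, against 7.77, 8.48 and 8.5 FPKM in HKO_BSA, while the 6 Flox libraries held 39.1, 39 and 41.6 FPKM with PA and 40.02, 37.7 and 45.7 FPKM with BSA. PA made no detectable difference to G3bp1 within HKO (log2 -0.12, adjusted p = 0.792). The HKO libraries of a group differed more among themselves than the Flox libraries did: gene SDs on the log2(FPKM + 1) scale had a median of 0.228 in HKO_PA and 0.215 in HKO_BSA, against 0.113 in Flox_PA and 0.103 in Flox_BSA. HKO_PA 1 was the library farthest from the others of its group in 57.8% of genes, and HKO_BSA 1 in 61.8%. On the first principal component of the 6 libraries (48.9% of the variance) HKO_PA 1 lay at 39.9 and HKO_BSA 1 at -24.8, with the other 4 between -11.6 and 5.82.

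Against that spread, 39 genes passed the test, limma's moderated test on log2(FPKM + 1) within the 6 libraries with Benjamini-Hochberg adjustment over all 9476 genes and a threshold of 0.05. PA raised 29 of them (0.306% of the genes tested) and lowered 10 (0.106%). On the FPKM + 1 scale, 27 and 8 of these changes were at least 2-fold. In every one of the 39 the PA and BSA libraries did not overlap. That also held for 837 genes in the higher direction (8.83%) and 881 in the lower (9.3%), so such a separation was common. Counts of separate genes in the lists below are to be read beside these shares. Of the 29 that rose, 10 averaged under 1 FPKM in HKO_BSA and entered the test only through their PA libraries, so they had to differ, and their passing is a description: Il23a, Hspa1a, Ccl4, Cxcl3, Ccl3, Fos, Dppa3, Pdk4 and 2 predicted genes. Likewise Vil1, Bhlha15 and 1 predicted gene among the 10 that fell averaged under 1 FPKM in HKO_PA. Of the 39, 16 passed with each of the 6 libraries left out in turn, 13 higher and 3 lower. In all, 18 genes passed without HKO_PA 2 and 24 without HKO_BSA 2. When the spread was estimated from all 12 libraries together, 148 genes (1.56%) rose and 126 (1.33%) fell, the 39 among them. Without both HKO libraries numbered 1 the number was 621. Below, rose and fell are kept for genes past the test within the 6 libraries, log2 changes are PA minus BSA, and of the 39 genes 3 predicted ones are counted but not named.

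**Figure D1:**
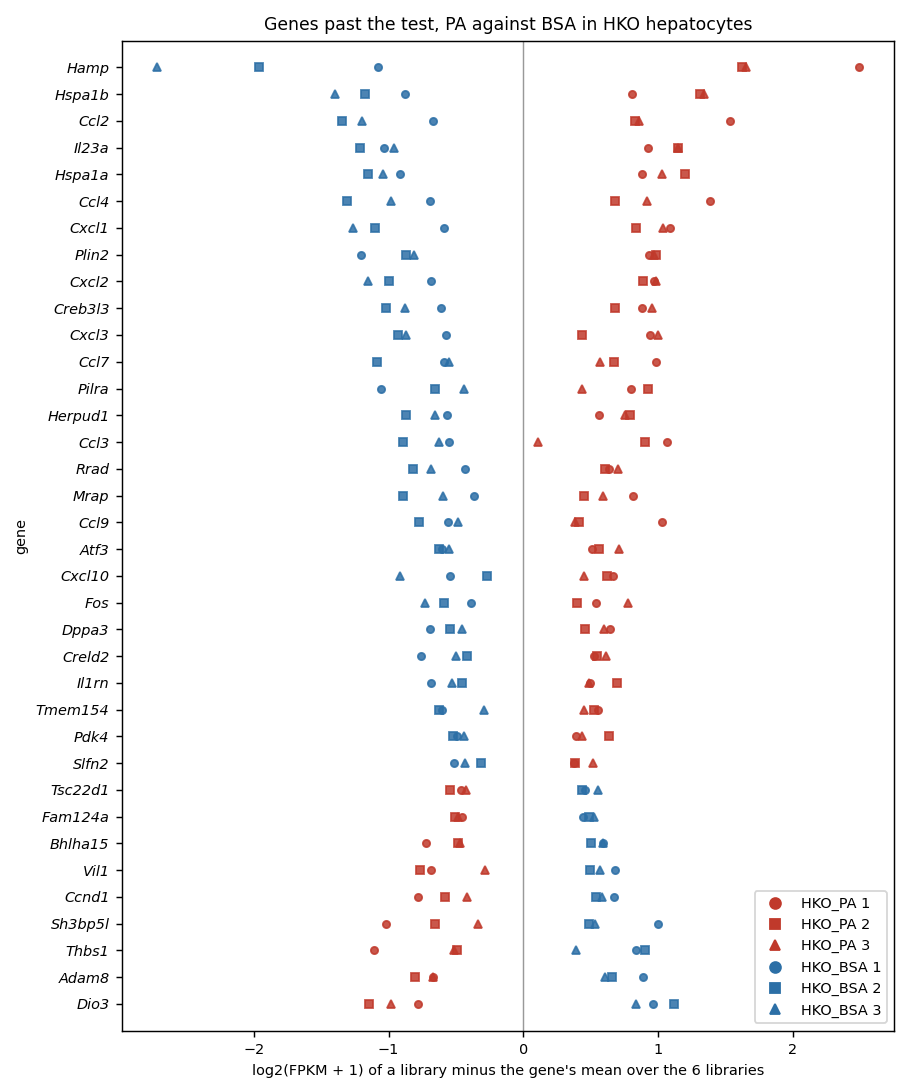
Level of the 36 named genes past the test in each HKO library, as log2(FPKM + 1) minus the gene's mean over the 6 libraries (x axis), with genes ordered by their change (y axis). Red symbols are HKO_PA and blue symbols HKO_BSA libraries, with 1 shape per library number. The colours do not overlap in any row, and the distance between them is widest for Hamp.

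Chemokine genes made up 9 of the 29 genes that rose. Of 23 chemokine genes listed, 14 were tested, 9 rose, none fell and 5 did not pass; all 14 had a log2 change above 0, with a median of 1.30, against a median of -0.0018 over all genes tested. With single libraries left out 6 or 7 chemokine genes rose, and 11 without both libraries numbered 1. The number was lower under other settings: 4 with the replicate number as a block, 3 with a filter at 5 FPKM and 1 without a filter. The other 9 were under 1 FPKM on average, and Cxcl3, Ccl3 and Ccl4 passed that limit only through their PA libraries. The genes that rose lie on 2 chromosomes. Cxcl3, Cxcl1 and Cxcl2 lie on chromosome 5 between 90786103 and 90905938, with Cxcl15, listed at 0 in all 6 libraries, between Cxcl3 and Cxcl1, and Cxcl10 lies further on at 92346638 to 92348889. On chromosome 11, Ccl2 and Ccl7 lie between 82035571 and 82047525, and Ccl9, Ccl3 and Ccl4 between 83572919 and 83664683 (GRCm38).

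Because Cxcl1, Cxcl2 and Cxcl3 all rose and lie in the same chemokine gene cluster, the 250 bases before their RefSeq start sites are shown here. Capitals mark the letters GGANTTTCC, a kB motif, searched on both strands in mouse build GRCm38.p6. Cxcl1 is at chr5:90890995-90891244, Cxcl2 at chr5:90903649-90903898 and Cxcl3 at chr5:90785851-90786100, all on the plus strand and printed 5′ to 3′.
Cxcl1: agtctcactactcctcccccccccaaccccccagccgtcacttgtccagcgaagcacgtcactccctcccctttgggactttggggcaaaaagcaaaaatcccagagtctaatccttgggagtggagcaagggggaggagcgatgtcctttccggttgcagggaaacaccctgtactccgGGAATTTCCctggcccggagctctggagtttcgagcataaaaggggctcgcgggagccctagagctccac
Cxcl2: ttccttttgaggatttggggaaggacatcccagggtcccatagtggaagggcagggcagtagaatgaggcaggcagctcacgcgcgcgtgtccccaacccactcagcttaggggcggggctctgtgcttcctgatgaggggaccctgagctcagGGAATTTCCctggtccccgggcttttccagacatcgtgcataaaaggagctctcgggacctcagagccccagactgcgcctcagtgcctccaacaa
Cxcl3: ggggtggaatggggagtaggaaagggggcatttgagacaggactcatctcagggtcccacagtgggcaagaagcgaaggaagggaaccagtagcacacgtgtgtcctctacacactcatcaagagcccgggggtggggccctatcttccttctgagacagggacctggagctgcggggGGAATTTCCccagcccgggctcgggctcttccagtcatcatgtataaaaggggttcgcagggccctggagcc
The motif starts 70 bases before the start site in Cxcl1, 96 in Cxcl2 and 72 in Cxcl3. It was found in 350 of 32851 RefSeq windows of this length (1.07%). Of the 29 genes that rose 20 had a window, and 4 of these held the motif, Cxcl1, Cxcl2, Cxcl3 and Cxcl10. Of the 10 genes that fell 8 had a window and none held it. A match describes letters only and does not show that a factor bound there.

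Cxcl1 to Cxcl3 encode chemokines that attract neutrophils. Cxcl1 measured 79.3, 66.5 and 76.8 FPKM in HKO_PA, against 24.2, 16.6 and 14.8 FPKM in HKO_BSA (log2 1.97, SE 0.22, adjusted p = 0.00298). Cxcl2 measured 43.5, 41 and 43.8 FPKM in HKO_PA, against 13.1, 10.4 and 9.22 FPKM in HKO_BSA (log2 1.89, SE 0.19, adjusted p = 0.00158). The 3 PA values of both genes lay close together and far above the BSA values. Cxcl3, the least abundant of the cluster, measured 3.91, 2.46 and 4.11 FPKM in HKO_PA, against 0.718, 0.345 and 0.397 FPKM in HKO_BSA (log2 1.58, SE 0.19, adjusted p = 0.00486). Cxcl10, an interferon-inducible chemokine for T cells, measured 6.91, 6.7 and 5.82 FPKM in HKO_PA, against 2.43, 3.15 and 1.65 FPKM in HKO_BSA (log2 1.15, SE 0.20, adjusted p = 0.0445), and it passed in 1 of the 6 fits with a library left out. Its neighbour Cxcl9 showed no such separation, at 84.4, 51.2 and 50.2 FPKM in HKO_PA, against 31.9, 58.1 and 68.1 FPKM in HKO_BSA (log2 0.25, adjusted p = 0.758): the order of its libraries was mixed.

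Among the Ccl genes, Ccl2, the main monocyte attractant, was the most abundant. It measured 361, 220.2 and 225 FPKM in HKO_PA, against 77.4, 48.2 and 53.5 FPKM in HKO_BSA (log2 2.14, SE 0.26, adjusted p = 0.00486), so the lowest PA library was well above the highest BSA library, although HKO_PA 1 stood above the rest. Ccl7, a second monocyte attractant, measured 6.5, 5.04 and 4.63 FPKM in HKO_PA, against 1.53, 0.792 and 1.59 FPKM in HKO_BSA (log2 1.48, SE 0.20, adjusted p = 0.0093). Ccl4 measured 7.33, 4.11 and 5.02 FPKM in HKO_PA, against 0.976, 0.288 and 0.614 FPKM in HKO_BSA (log2 1.99, SE 0.23, adjusted p = 0.00349). These 3 genes and the Cxcl1 to Cxcl3 cluster passed with each library left out. Ccl3 measured 5.15, 4.49 and 2.16 FPKM in HKO_PA, against 1.01, 0.58 and 0.908 FPKM in HKO_BSA (log2 1.38, SE 0.24, adjusted p = 0.045), with HKO_PA 3 below the other PA libraries, and passed in 2 of the 6 such fits. Ccl9 measured 24.4, 15.6 and 15.2 FPKM in HKO_PA, against 7.45, 6.27 and 7.9 FPKM in HKO_BSA (log2 1.22, SE 0.22, adjusted p = 0.0497) and passed in none of them. The listed chemokine genes that were tested but did not pass were Ccl5 (log2 0.55), Ccl6 (0.48), Ccl20 (0.55), Cxcl9 (0.25) and Cxcl16 (0.51), with Ccl20 the only one of them whose groups did not overlap. Pf4, a chemokine gene of chromosome 5 that is not on the list, did not pass either (log2 0.52, adjusted p = 0.346). Its groups did not overlap.

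**Figure D2:**
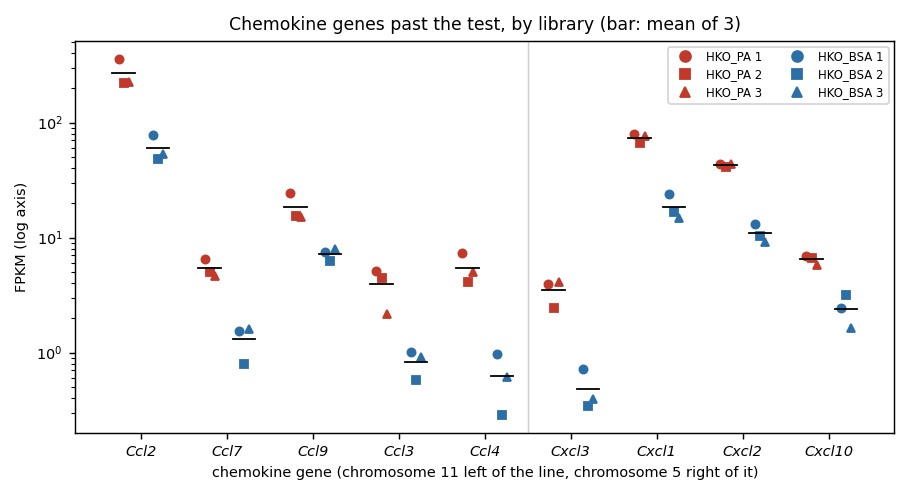
FPKM on a log axis (y) of the 9 chemokine genes that rose (x), with HKO_PA libraries in red left of HKO_BSA libraries in blue, 1 symbol shape per library number and a bar at each mean. All PA symbols lie above all BSA symbols of the same gene, and Ccl2 spans 48.2 to 361 FPKM over the 6 libraries.

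Few cytokine and growth factor genes outside the chemokine family passed. Of 33 listed, 15 were tested, and Il23a and Il1rn rose, none fell and 13 did not pass (median log2 0.11). Of the 15, 5 were separate on the higher side and 3 on the lower, against 8.83% and 9.3% of all genes tested. With all 12 libraries in the fit, 4 passed in the higher direction and 1 in the lower. Il23a encodes the p19 subunit of interleukin-23, which needs the subunit encoded by Il12b; Il12b was under the limit of 1 FPKM. Il23a measured 6.13, 7.3 and 7.31 FPKM in HKO_PA, against 0.832, 0.621 and 0.928 FPKM in HKO_BSA (log2 2.14, SE 0.17, adjusted p = 0.000433), tight within each group and without overlap, though it entered the test through its PA libraries. Il1rn, which encodes the interleukin-1 receptor antagonist, measured 3.28, 3.91 and 3.24 FPKM in HKO_PA, against 0.885, 1.21 and 1.1 FPKM in HKO_BSA (log2 1.12, SE 0.16, adjusted p = 0.0122). The interleukin-1 beta gene Il1b had a log2 change of 0.91 (adjusted p = 0.101). Csf1, the macrophage growth factor, was on the lower side at 3.96, 6.18 and 6.6 FPKM in HKO_PA, against 14.3, 13 and 12.5 FPKM in HKO_BSA, but its adjusted p of 0.0515 (log2 -1.14, SE 0.21) missed the threshold.

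No gene of the NF-kB pathway and its feedback inhibitors passed among 22 tested, although 9 had PA libraries entirely above the BSA libraries and 1 entirely below. Such separation held for 8.83% and 9.3% of all genes tested. The median log2 change of the 22 was 0.43. Nfkbia, which encodes the inhibitor IkB-alpha, measured 20.1, 22.8 and 25.5 FPKM in HKO_PA, against 15.2, 10.1 and 9.28 FPKM in HKO_BSA (log2 0.95, adjusted p = 0.128), and Nfkbiz, a nuclear cofactor, 1.87, 2.37 and 2.35 FPKM in HKO_PA, against 0.989, 0.809 and 0.889 FPKM in HKO_BSA (log2 0.75, adjusted p = 0.0844). In both, the groups did not overlap, though Nfkbiz averaged 0.896 FPKM in HKO_BSA and entered the test only through its PA libraries. With the spread estimated from all 12 libraries, 8 of the 22 passed in the higher direction. Of 15 interferon response genes tested, none passed (median log2 0.13, smallest adjusted p = 0.322, for the GTPase gene Ifi47).

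Markers of other cells were measured beside the chemokines. None of the 14 macrophage and Kupffer cell markers tested passed (median log2 0.12, 9 above 0). Of the 14, 4 were separate on the higher side and 1 on the lower, against 8.83% and 9.3% of all genes tested. With all 12 libraries in the fit, 3 passed in the higher direction and none in the lower. The summed level of all 19 listed was 182, 143 and 146 FPKM in HKO_PA, against 136, 96.1 and 123 FPKM in HKO_BSA, so all PA libraries lay above all BSA libraries. Lyz2, given below, was a large part of these sums, and without it the groups overlapped. No listed marker was at 0 in all 3 libraries of either group. The Flox libraries held sums of 1924 to 2166 FPKM with PA and 2297 to 2397 FPKM with BSA. Fcer1g, a signalling chain of Fc receptors and the marker with the smallest p, measured 18.1, 12.5 and 10.8 FPKM in HKO_PA, against 7.3, 5.52 and 7.29 FPKM in HKO_BSA (log2 0.92, adjusted p = 0.162), without overlap. Marco, a scavenger receptor, measured 17.1, 14 and 19.2 FPKM in HKO_PA, against 11.4, 5.86 and 7.85 FPKM in HKO_BSA (log2 0.95, adjusted p = 0.179), and Lyz2, lysozyme, 74.5, 57.5 and 58.4 FPKM in HKO_PA, against 38.6, 36 and 45 FPKM in HKO_BSA (log2 0.65, adjusted p = 0.28), whereas Csf1r, the receptor for Csf1, measured 1.6, 2.13 and 2.09 FPKM in HKO_PA, against 3.32, 2.8 and 2.29 FPKM in HKO_BSA (log2 -0.37, adjusted p = 0.492). Neutrophil markers summed to between 2.35 and 3.51 FPKM in HKO_PA and between 1.01 and 2.17 FPKM in HKO_BSA, with 6 of 12 at 0 in all 3 HKO_PA libraries and 7 in all 3 HKO_BSA libraries. In Flox these sums were 67.2 to 83.9 FPKM with PA and 55.4 to 61.5 FPKM with BSA. The part of these cells in the chemokine change was not tested. In bulk RNA, fewer cells of a type and less RNA per cell cannot be told apart.

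The libraries carried the transcripts that define hepatocytes. Alb, which encodes albumin, measured 11716, 6262 and 5322 FPKM in HKO_PA, against 4091, 15614 and 14048 FPKM in HKO_BSA, and Hnf4a, a hepatocyte transcription factor, 6.88, 11.6 and 14.3 FPKM in HKO_PA, against 11.5, 10.4 and 9.83 FPKM in HKO_BSA, and neither separated the groups. None of 30 hepatocyte identity genes tested passed (median log2 -0.05). Endothelial markers summed to 23.2 to 30.1 FPKM in HKO_PA and 25.6 to 29.3 FPKM in HKO_BSA, stellate cell markers to 3.06 to 4.43 and 2.90 to 3.46 FPKM, and lymphocyte markers to 0.0764 to 0.256 and 0.117 to 0.158 FPKM. Cholangiocyte markers summed to 120 to 152 FPKM in HKO_PA and 156 to 280 FPKM in HKO_BSA, of which Cldn4, a tight junction gene, made up 97.4, 97.4 and 133 FPKM with PA and 261, 134 and 159 FPKM with BSA. In Flox_PA and Flox_BSA, endothelial markers summed to 37.7 to 41.9 and 42 to 44 FPKM. Stellate cell markers summed there to 12.6 to 16.9 and 13.3 to 14.7 FPKM, and lymphocyte markers to 2.74 to 3.31 and 3.79 to 5.03 FPKM. Cholangiocyte markers were lower in Flox, at 22.9 to 29.4 and 66.5 to 75.6 FPKM.

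Among lipid genes Plin2 rose, and no gene of fatty acid or cholesterol synthesis passed. Plin2, the perilipin that coats hepatocyte lipid droplets (ENSMUSG00000028494, chromosome 4, 86648386 to 86670060, minus strand), measured 763, 791 and 786 FPKM in HKO_PA, against 173, 219 and 228 FPKM in HKO_BSA (log2 1.92, SE 0.21, adjusted p = 0.0028), with PA libraries almost equal to one another. It was the only one of 27 lipid droplet and triglyceride turnover genes tested that passed (median log2 0.01). Hilpda, an inhibitor of the triglyceride lipase ATGL, measured 32.2, 26.5 and 31.8 FPKM in HKO_PA, against 19.6, 11.1 and 13.6 FPKM in HKO_BSA (log2 1.01, adjusted p = 0.112). G0s2, another ATGL inhibitor, measured 47.8, 35.4 and 37.8 FPKM in HKO_PA, against 29.9, 16.7 and 22.1 FPKM in HKO_BSA (log2 0.82, adjusted p = 0.258). Both had groups that did not overlap, as had 4 more members on the higher side, Plin2 among them, and 3 on the lower side. The shares over all genes tested were 8.83% on the higher side and 9.3% on the lower.

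Of 39 tested genes of fatty acid oxidation and other PPARA targets, 2 rose, none fell and 37 did not pass; the median log2 change was 0.14. Creb3l3 encodes CREB-H, a transcription factor of the endoplasmic reticulum membrane that works with PPARA in fasting liver. It measured 64.9, 56.6 and 68.4 FPKM in HKO_PA, against 22.5, 16.7 and 18.6 FPKM in HKO_BSA (log2 1.67, SE 0.19, adjusted p = 0.00349) and passed with each library left out. Pdk4, a kinase that restrains pyruvate oxidation, measured 2.14, 2.71 and 2.23 FPKM in HKO_PA, against 0.697, 0.668 and 0.759 FPKM in HKO_BSA (log2 0.97, SE 0.15, adjusted p = 0.0177), and entered the test only through its PA libraries. Pdk4 passed in 2 of the 6 fits with a library left out. Acadl, the long-chain acyl-CoA dehydrogenase, measured 33.2, 26.7 and 28.9 FPKM in HKO_PA, against 15.3, 15.2 and 14.7 FPKM in HKO_BSA with clearly separate groups, but missed the threshold (log2 0.92, adjusted p = 0.0691). Further PPARA targets did not pass, such as Angptl4 (log2 0.14) and Cyp4a14 (log2 0.21). Fgf21, a liver hormone and PPARA target, measured 23.7, 19.96 and 19.2 FPKM in HKO_PA, against 43.9, 35.3 and 34.3 FPKM in HKO_BSA (log2 -0.82, adjusted p = 0.134).

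None of 21 fatty acid synthesis genes passed (median log2 -0.18), while 6 had PA libraries entirely below the BSA libraries and 1 entirely above. Of all genes tested, 9.3% lay entirely below and 8.83% entirely above. Fasn, fatty acid synthase, measured 10.03, 22.6 and 26.5 FPKM in HKO_PA, against 58.8, 49 and 36.2 FPKM in HKO_BSA (log2 -1.32, SE 0.33, adjusted p = 0.178), with HKO_PA 1 below the other PA libraries. Acaca, which makes malonyl-CoA, measured 1.52, 3.53 and 2.99 FPKM in HKO_PA, against 6.29, 6.15 and 3.87 FPKM in HKO_BSA (log2 -0.83, adjusted p = 0.298). None of 28 cholesterol synthesis and uptake genes passed either (median log2 0.19), with 6 separate on the higher side, among them Acat2 (log2 0.73) and Nsdhl (log2 0.54).

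On the log2(FPKM + 1) scale, the largest rise of all was that of Hamp (ENSMUSG00000050440, chromosome 7, 30942368 to 30944032, minus strand). Hamp encodes hepcidin, the liver hormone that closes iron export by binding ferroportin. It measured 119, 65 and 66.2 FPKM in HKO_PA, against 9.12, 4.49 and 2.26 FPKM in HKO_BSA (log2 3.84, SE 0.38, adjusted p = 0.00158). The lowest PA library was several times above the highest BSA library. Hamp was the only one of 28 acute phase genes tested that passed (median log2 0.21). Lcn2, an iron-scavenging acute phase protein, measured 266, 205 and 193 FPKM in HKO_PA, against 97.8, 92.6 and 120.1 FPKM in HKO_BSA (log2 1.08, adjusted p = 0.0749). The metallothionein genes Mt1 and Mt2, whose products bind zinc, had log2 changes of 1.12 and 1.20, with adjusted p-values of 0.0947 and 0.101 and groups that did not overlap. They are on a list of metallothioneins and zinc transporters with 6 genes tested, none of which passed (median log2 -0.13). On that list, 2 genes were separate on the higher side and 2 on the lower, against 8.83% and 9.3% of all genes tested.

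In the heat shock group the inducible HSP70 genes rose without the rest. Hspa1a measured 3.51, 4.64 and 4.02 FPKM in HKO_PA, against 0.304, 0.107 and 0.195 FPKM in HKO_BSA (log2 2.07, SE 0.16, adjusted p = 0.000433), and Hspa1b measured 7.54, 11.1 and 11.3 FPKM in HKO_PA, against 1.66, 1.15 and 0.847 FPKM in HKO_BSA (log2 2.30, SE 0.21, adjusted p = 0.00119). Both were under 2 FPKM in every BSA library and above 3 FPKM in every PA library, and Hspa1a passed the limit of 1 FPKM only through its PA libraries. They are near-identical neighbours, so how reads were split between them is uncertain. Of 24 cytosolic heat shock genes tested, these 2 rose, none fell and 22 did not pass (median log2 0.06), among them Hsph1 (log2 0.38), Dnajb1 (0.22), Hspb1 (0.33) and Hsp90aa1 (0.32).

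The region before Hspa1a is shown because it holds a heat shock element and is almost the same as that of Hspa1b. It lies at chr17:34972157-34972406 on the minus strand (RefSeq, GRCm38.p6), and capitals mark GAANNTTC.
Hspa1a: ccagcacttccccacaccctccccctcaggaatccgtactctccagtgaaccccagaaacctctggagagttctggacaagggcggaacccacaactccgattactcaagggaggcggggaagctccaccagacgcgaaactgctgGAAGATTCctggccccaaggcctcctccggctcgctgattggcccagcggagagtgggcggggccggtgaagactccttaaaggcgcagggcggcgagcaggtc
The motif starts 104 bases before the start site in both genes, and 247 of the 250 bases (98.8%) are the same in both. GAANNTTC is a loose motif, found in 2199 of the 32851 windows (6.69%) and in 3 of the 20 windows of genes that rose, the third being Creb3l3. None of the 8 windows of genes that fell held it.

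Chaperone and degradation genes and ATF4 and CHOP targets, branches of the endoplasmic reticulum stress response, were both covered, and few genes of either passed. Of 28 chaperone and degradation genes tested, Herpud1 and Creld2 rose, none fell and 26 did not pass (median log2 -0.10). On each side 5 were separate, against 8.83% of all genes tested on the higher side and 9.3% on the lower. Herpud1, which serves the disposal of misfolded proteins, measured 36.6, 43.1 and 42 FPKM in HKO_PA, against 16.2, 12.9 and 15.2 FPKM in HKO_BSA (log2 1.40, SE 0.18, adjusted p = 0.0073). Creld2, an endoplasmic reticulum protein with disulfide isomerase activity, measured 72.8, 73.7 and 77.6 FPKM in HKO_PA, against 29.3, 37.3 and 35.3 FPKM in HKO_BSA (log2 1.12, SE 0.18, adjusted p = 0.0293). Herpud1 passed in 5 of the 6 fits with a library left out, and Creld2 in 1. Sdf2l1, a cofactor of the chaperone BiP, measured 33.6, 25.9 and 31.9 FPKM in HKO_PA, against 19.3, 11.3 and 11.5 FPKM in HKO_BSA (log2 1.10, adjusted p = 0.1). Hspa5, which encodes BiP itself, measured 191, 198 and 156 FPKM in HKO_PA, against 129, 287 and 255 FPKM in HKO_BSA (log2 -0.23, adjusted p = 0.778), and its groups overlapped. Of 30 ATF4 and CHOP targets tested, Atf3 alone rose (median log2 -0.04). Ddit3, which encodes CHOP, measured 25, 24.2 and 26.4 FPKM in HKO_PA, against 8.95, 16.1 and 15.7 FPKM in HKO_BSA (log2 0.89, adjusted p = 0.196).

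The 2 genes that rose are shown with the endoplasmic reticulum stress elements found before their start sites (RefSeq, GRCm38.p6, plus strand, both strands searched). Herpud1, at chr8:94386179-94386428, holds ERSE-II, read as ATTGG, 1 base and CCACG. Creld2, at chr15:88819396-88819645, holds ERSE, read as CCAAT, 9 bases and CCACG, here on the opposite strand. Capitals mark them.
Herpud1: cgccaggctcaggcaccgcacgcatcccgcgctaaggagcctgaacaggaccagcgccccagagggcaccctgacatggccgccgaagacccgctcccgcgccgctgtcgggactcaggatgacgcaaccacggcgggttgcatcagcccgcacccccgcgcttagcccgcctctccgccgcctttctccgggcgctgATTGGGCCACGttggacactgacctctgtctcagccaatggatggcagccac
Creld2: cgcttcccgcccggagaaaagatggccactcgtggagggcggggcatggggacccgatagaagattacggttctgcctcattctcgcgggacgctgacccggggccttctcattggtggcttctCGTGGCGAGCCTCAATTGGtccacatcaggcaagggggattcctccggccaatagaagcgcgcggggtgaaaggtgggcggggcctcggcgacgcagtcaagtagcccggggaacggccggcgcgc
ERSE-II starts 52 bases before the Herpud1 start site and was found in 10 of the 32851 windows (0.0304%). ERSE starts 126 bases before that of Creld2 and was found in 37 (0.113%). No other window of a gene past the test held either.

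Among 31 immediate early genes tested, Fos and Atf3 rose, none fell and 29 did not pass (median log2 -0.005). Atf3, a stress-induced repressor of transcription, measured 41, 42.4 and 47.3 FPKM in HKO_PA, against 18.4, 18.1 and 19.2 FPKM in HKO_BSA (log2 1.19, SE 0.17, adjusted p = 0.0129). Fos, a subunit of AP-1, measured 2.31, 2.0 and 2.9 FPKM in HKO_PA, against 0.74, 0.512 and 0.369 FPKM in HKO_BSA (log2 1.14, SE 0.17, adjusted p = 0.0129), and entered the test only through its PA libraries. Atf3 passed in 2 of the 6 fits with a library left out, and Fos in 4. Egr1, a zinc finger factor of the same early wave, measured 8.86, 13.4 and 15.9 FPKM in HKO_PA, against 6.75, 4.47 and 3.79 FPKM in HKO_BSA (log2 1.19, adjusted p = 0.1), and its groups did not overlap. Jun, the usual partner of Fos, had a log2 change of -0.36 (adjusted p = 0.582).

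Other genes that rose belong to none of the lists. Pilra, an inhibitory receptor of myeloid cells, measured 4.94, 5.48 and 3.62 FPKM in HKO_PA, against 0.646, 1.17 and 1.52 FPKM in HKO_BSA (log2 1.43, SE 0.21, adjusted p = 0.0129). Mrap, an accessory protein of the melanocortin-2 receptor, measured 86.3, 67 and 73.8 FPKM in HKO_PA, against 37.6, 25.8 and 31.9 FPKM in HKO_BSA (log2 1.24, SE 0.21, adjusted p = 0.0333). Rrad, a small GTPase, measured 11.2, 11 and 11.8 FPKM in HKO_PA, against 4.82, 3.46 and 3.89 FPKM in HKO_BSA (log2 1.29, SE 0.18, adjusted p = 0.0101), and Tmem154, a membrane protein, 6.11, 5.95 and 5.62 FPKM in HKO_PA, against 2.18, 2.13 and 2.96 FPKM in HKO_BSA (log2 1.02, SE 0.17, adjusted p = 0.039). Slfn2, a schlafen family gene, measured 2.64, 2.66 and 3.02 FPKM in HKO_PA, against 0.968, 1.26 and 1.08 FPKM in HKO_BSA (log2 0.85, SE 0.15, adjusted p = 0.0497). Dppa3, known from oocytes and early embryos, measured 2.25, 1.85 and 2.15 FPKM in HKO_PA, against 0.289, 0.427 and 0.52 FPKM in HKO_BSA (log2 1.13, SE 0.15, adjusted p = 0.0073), and it entered the test only through its PA libraries. Tmem154 and Slfn2 no longer passed once any single library was left out, and Mrap passed in 1 of the 6 such fits.

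Dio3 fell most. It encodes the deiodinase that inactivates thyroid hormone (ENSMUSG00000075707, chromosome 12, 110279068 to 110281097, plus strand) and measured 1.76, 1.14 and 1.4 FPKM in HKO_PA, against 8.22, 9.31 and 7.45 FPKM in HKO_BSA (log2 -1.94, SE 0.18, adjusted p = 0.00119). Its groups lay far apart, and it passed with each library left out. It was the only one of 25 hepatokine and hormone genes tested that passed (median log2 -0.05). Of the 25, 7 were separate on the lower side and 2 on the higher, against 9.3% and 8.83% of all genes tested. Adam8, a membrane-bound metalloprotease, measured 1.68, 1.44 and 1.68 FPKM in HKO_PA, against 6.88, 5.73 and 5.5 FPKM in HKO_BSA (log2 -1.43, SE 0.17, adjusted p = 0.00411), and also passed with each library left out. Ccnd1, the cyclin of the G1 phase, measured 0.79, 1.05 and 1.29 FPKM in HKO_PA, against 3.89, 3.46 and 3.59 FPKM in HKO_BSA (log2 -1.19, SE 0.16, adjusted p = 0.0093). It was the only one of 27 cell cycle and p53 genes that passed (median log2 0.03).

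Of 30 actin cytoskeleton and YAP target genes tested, 2 fell, none rose and 28 did not pass (median log2 -0.25, with 7 separate on the lower side and none on the higher). Thbs1, thrombospondin-1, measured 2.11, 3.75 and 3.67 FPKM in HKO_PA, against 10.9, 11.5 and 7.75 FPKM in HKO_BSA (log2 -1.41, SE 0.23, adjusted p = 0.0275). Vil1, the microvillus protein villin, measured 0.629, 0.54 and 1.16 FPKM in HKO_PA, against 3.21, 2.7 and 2.89 FPKM in HKO_BSA (log2 -1.16, SE 0.17, adjusted p = 0.0157), and entered the test only through its BSA libraries. Ctgf, a standard YAP target, measured 51.1, 45.4 and 56.6 FPKM in HKO_PA, against 87.7, 77.3 and 66.6 FPKM in HKO_BSA (log2 -0.59, adjusted p = 0.343). None of 21 matrix and adhesion genes passed (median log2 -0.32, 6 separate on the lower side and 1 on the higher). For both lists, the shares over all genes tested were 9.3% on the lower side and 8.83% on the higher. Fn1, fibronectin, measured 48.3, 119 and 134 FPKM in HKO_PA, against 286, 281 and 188 FPKM in HKO_BSA (log2 -1.42, SE 0.36, adjusted p = 0.179), with HKO_PA 1 far below the other PA libraries. None of 24 junction genes passed (median log2 -0.17).

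The remaining genes that fell were Bhlha15, Sh3bp5l, Tsc22d1 and Fam124a. Bhlha15 encodes MIST1, a transcription factor of secretory cells, and measured 0.554, 0.833 and 0.853 FPKM in HKO_PA, against 2.86, 2.63 and 2.85 FPKM in HKO_BSA (log2 -1.12, SE 0.15, adjusted p = 0.0093). It too entered the test only through its BSA libraries. Sh3bp5l measured 2.99, 4.13 and 5.4 FPKM in HKO_PA, against 15.2, 10.3 and 10.7 FPKM in HKO_BSA (log2 -1.34, SE 0.23, adjusted p = 0.0388). Sh3bp5l passed in 2 of the 6 fits with a library left out. Tsc22d1, a leucine zipper protein, measured 7.27, 6.84 and 7.51 FPKM in HKO_PA, against 14.7, 14.4 and 15.7 FPKM in HKO_BSA (log2 -0.96, SE 0.17, adjusted p = 0.045), and Fam124a 13.7, 13.1 and 13.4 FPKM in HKO_PA, against 26.3, 27.2 and 27.9 FPKM in HKO_BSA (log2 -0.97, SE 0.17, adjusted p = 0.0425). The values of Tsc22d1 and Fam124a were tight in both groups, yet neither passed once any single library was left out.

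**Figure D3:**
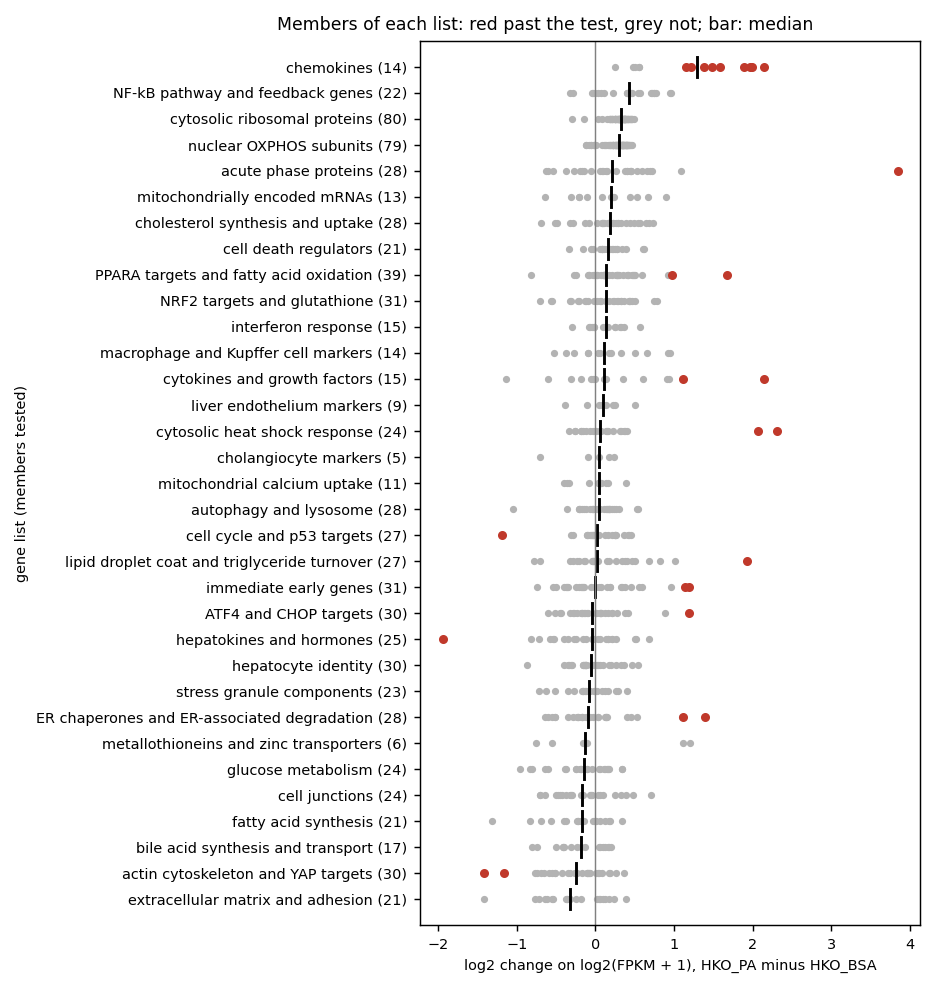
Log2 change with PA (x axis) of each tested member of the lists with at least 5 of them (y axis, number tested in brackets), ordered by the list's median, which is drawn as a bar. Red points passed the test and grey points did not. Chemokines stand at the top with 9 of 14 red, and matrix genes at the bottom with none.

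Several lists tied to mitochondria and to G3BP1 itself held no gene past the test. None of 11 genes of mitochondrial calcium uptake passed (median log2 0.05). Mcu, the channel subunit of the uniporter, measured 4.14, 4.7 and 5.86 FPKM in HKO_PA, against 6.07, 6.61 and 6.45 FPKM in HKO_BSA (log2 -0.33, adjusted p = 0.542), and its regulator Micu2 had a log2 change of 0.03. None of 23 stress granule components passed (median log2 -0.08), and G3bp2, the paralog of G3bp1, measured 1.93, 1.99 and 1.86 FPKM in HKO_PA, against 1.59, 2.58 and 2.09 FPKM in HKO_BSA (log2 -0.07, adjusted p = 0.896). None of 13 mitochondrially encoded mRNAs passed (median log2 0.20), and the share of reads from mitochondrial genes was 8.16%, 7.07% and 5.42% in HKO_PA, against 4.10%, 7.91% and 8.20% in HKO_BSA, so that HKO_BSA 1 stood apart from its group. Also without a gene past the test were the lists of NRF2 targets and glutathione (31 tested, median log2 0.13), cell death regulators (21, 0.16), glucose metabolism (24, -0.14), bile acid synthesis and transport (17, -0.18), and autophagy and lysosome (28, 0.04).

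Genes of cytosolic ribosomal proteins and nuclear OXPHOS subunits shifted by small amounts that did not pass. Of 80 ribosomal protein genes 78 had a log2 change above 0 (median 0.33), and of 79 OXPHOS genes 71 (median 0.30). The shift was unequal between library numbers: the median difference of ribosomal protein genes was 0.62 between the libraries numbered 1, 0.34 between those numbered 2 and 0.03 between those numbered 3. These genes are short, and level moved with gene length in single libraries. With genes split into 5 equal groups by length, in the shortest group (median 1009 bases) the median deviation from the gene's mean was 0.41 in HKO_PA 1 and -0.26 in HKO_BSA 2, and in the longest (median 8340 bases) it was -0.22 and 0.16. The median log2 change with PA was 0.24 in the shortest group and -0.14 in the longest. The part of this length pattern in the lists' medians was not tested. With the trend on length removed within each library, 46 genes passed, 30 higher and 16 lower, 32 of them among the 39.

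**Figure D4:**
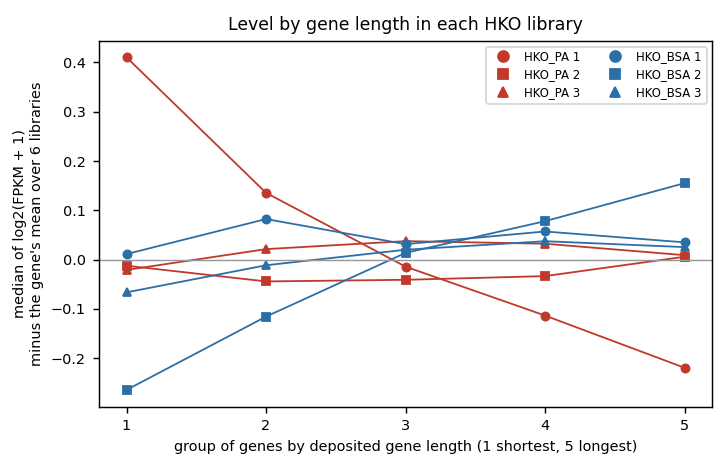
Median over genes of log2(FPKM + 1) minus the gene's mean over the 6 libraries (y axis), for 5 equal groups of genes by length (x axis, 1 shortest), with 1 line per library, HKO_PA in red and HKO_BSA in blue. HKO_PA 1 falls from 0.41 to -0.22 with length and HKO_BSA 2 climbs from -0.26 to 0.16, while HKO_PA 2, HKO_PA 3 and HKO_BSA 3 stay within 0.07 of 0 and HKO_BSA 1 within 0.09.

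The same genes were looked up for PA against BSA in Flox, in a fit of the 6 Flox libraries alone, where 1417 genes (15%) passed. Of the 39 genes past the test in HKO, 34 had the same sign in Flox, 24 of them passed there with that sign, and none passed with the opposite one. Plin2 changed by log2 1.97 in Flox (adjusted p = 0.000196), Hamp by 2.84 (0.000196), Hspa1b by 1.67 (0.000255), Herpud1 by 1.13 (0.000472) and Dio3 by -2.49 (0.000196). The larger Flox count goes with the smaller spread of the Flox libraries, and the 2 counts do not compare the sizes of the responses.

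The difference between the genotypes was tested as an interaction over all 12 libraries, the PA change in HKO minus that in Flox. It passed for 20 genes (0.211%), 10 higher and 10 lower, with 1600 at an unadjusted p under 0.05. Of the 39 genes 6 were among them, 5 of which are not predicted genes. Cxcl2 changed by log2 1.89 in HKO and 0.63 in Flox (difference 1.27, SE 0.20, adjusted p = 0.0203), where it measured 49.6, 53.3 and 53.8 FPKM with PA and 37.1, 28.2 and 35.9 FPKM with BSA. The HKO_BSA values lay below all the Flox_BSA values. Ccl2 (difference 1.52, adjusted p = 0.0634) and Cxcl1 (difference 0.83, adjusted p = 0.175) did not pass. Dppa3 (difference 1.63, adjusted p = 0.011) and Slfn2 (1.11, 0.0172) were on the higher side, and Adam8 (-1.61, 0.011) and Fam124a (-1.15, 0.011) on the lower. Dppa3 entered this test too only through its HKO_PA libraries, so its passing is a description. It was under 1 FPKM in every Flox library. Slfn2 averaged 27.7 FPKM in Flox_PA and 33.5 FPKM in Flox_BSA, against 2.78 FPKM in HKO_PA and 1.1 FPKM in HKO_BSA. Sums of macrophage and neutrophil markers were also higher in Flox than in HKO, as given above. The part of the mix of cells in these differences was not tested.

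Genes that missed the test within HKO but passed that of the difference include G0s2 and Gclc, whose changes ran opposite ways. G0s2 measured 34.6, 31 and 28 FPKM in Flox_PA, against 66.2, 75.1 and 61.5 FPKM in Flox_BSA, so its change was log2 0.82 in HKO and -1.09 in Flox (difference 1.91, SE 0.27, adjusted p = 0.011). Gclc, the catalytic subunit of glutathione synthesis, measured 77.5, 90.7 and 93.2 FPKM in HKO_PA, against 119, 169 and 144 FPKM in HKO_BSA. In Flox it measured 147, 132 and 141 FPKM with PA and 86.1, 92.2 and 83.4 FPKM with BSA (difference -1.39, SE 0.20, adjusted p = 0.011). Derl3, of endoplasmic reticulum degradation, measured 3.14, 3.22 and 2.59 FPKM in HKO_PA, against 2.07, 1.78 and 1.83 FPKM in HKO_BSA, with a change of log2 0.46 in HKO and 1.83 in Flox (difference -1.38, adjusted p = 0.011). Areg, a growth factor of the EGF family, changed by log2 0.94 in HKO and -0.32 in Flox (difference 1.26, adjusted p = 0.011). The number of genes past this test ranged from 0 without Flox_PA 3 to 223 without HKO_PA 3, and it was 1 without Flox_PA 2, 6 without Flox_BSA 1, 8 without Flox_BSA 3, 11 without HKO_PA 2, 12 without Flox_BSA 2 and 13 without HKO_BSA 3.

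**Figure D5:**
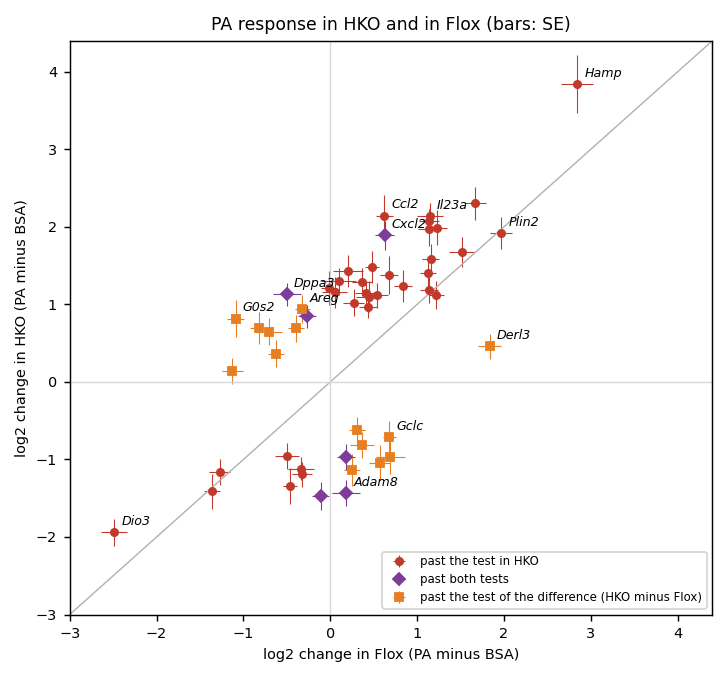
Log2 change with PA in HKO (y axis) against that in Flox (x axis), with SE bars, for genes past the test in HKO (red), past the test of the difference (orange) or past both (purple); the grey diagonal marks equal changes. Plin2 and Hamp lie high on both axes, Dio3 low on both, and G0s2 and Gclc on opposite sides of 0.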

How the data were processed

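RNA-seq libraries of 12 hepatocyte samples in 4 groups of 3 were used. Per the labels' protocols, RNA was extracted with an RNeasy Plus Mini Kit and libraries were made with an NEBNext Ultra RNA kit. The authors deposited 1 table of FPKM values per gene and library, with gene lengths; the submitters' processing notes name GRCm38 (mm10), and the aligner, counter, annotation release and use of strand are not given here, so overlapping genes cannot be told apart. FPKM times length gave whole reads (within 0.05) for 100% of values of up to 1000 reads.

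Values were tested as log2(FPKM + 1), which understates the change of low genes, with limma 3.58.1 (R 4.3.3, trended variance prior), two-sided, Benjamini-Hochberg over all 9476 genes that averaged 1 FPKM or more in the 6 HKO libraries. The fit within HKO used only these 6 libraries, because HKO libraries vary more than Flox libraries; the interaction used all 12. The fit was tested on simulated data.

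Named genes are G3bp1, G3bp2, up to 25 per direction past the test with groups that do not overlap, up to 4 members per list past the test or the 2 with the smallest p, and 8 per direction for the interaction. A few further genes, list members but for Pf4 and chosen after their values were seen, give context: Cxcl9, Ccl5, Ccl6, Ccl20, Cxcl16, Pf4, Il1b, Lyz2, Csf1r, Alb, Hnf4a, Acadl, Angptl4, Cyp4a14, Hsph1, Dnajb1, Hspb1, Hsp90aa1, Sdf2l1, Hspa5, Egr1, Jun, Ctgf, Mcu and Micu2. The members, the 36 gene lists and the tests were chosen with earlier results of these data known. Alternatives were another pseudocount, filters, normalizations, library weights, a robust prior, all 12 libraries, a replicate block, left-out libraries, a length correction and limma-voom on the computed reads.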

Additional observations from a re-analysis of the deposited data

Results flagged for a closer look

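The PA change differed between HKO and Flox, by the interaction test (limma, Benjamini-Hochberg adjustment), in 20 genes. The 8 with the largest difference in each direction are given, leaving out predicted genes. Values are the log2 change in HKO minus that in Flox. Those on the higher side were G0s2 (1.91), Dppa3 (1.63), Lce1g (1.52), Esm1 (1.36), Pgf (1.27), Cxcl2 (1.27), Areg (1.26) and Slfn2 (1.11). Those on the lower side were Adam8 (-1.61), Ulk1 (-1.61), Csf1 (-1.39), Gclc (-1.39), Derl3 (-1.38), Chdh (-1.17), Fam124a (-1.15) and Slc17a9 (-0.93). Dppa3 entered the test only through its HKO_PA libraries and Chdh only through its HKO_BSA libraries, so their places here are descriptions. Both were under 1 FPKM in every Flox library. Pgf, a placental growth factor gene, changed by log2 0.14 in HKO and -1.13 in Flox, and Ulk1, which starts autophagy, by -1.04 in HKO and 0.57 in Flox. Csf1 changed by log2 -1.14 in HKO and 0.25 in Flox, and Esm1 by 0.65 in HKO and -0.71 in Flox.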

How the results depend on the processing

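The number of genes past the test in HKO (39) stayed within 1.5 times under a pseudocount of 0.1, quantile and median ratio scaling, a robust prior, the length correction and limma-voom (34 to 46). It was 5 without a filter, 13 (12 higher, 1 lower) with a filter at 5 FPKM, 1079 (487 and 592) under array weights estimated gene by gene, 274 (148 and 126) with all 12 libraries in the fit, 621 (291 and 330) without both HKO libraries numbered 1, and 18 to 36 with single libraries left out. With the replicate number as a block it was 8, all higher; deviations of same-numbered libraries correlated at -0.24, 0.35 and -0.48, and not every library correlated best with its own number. The default array weights did not converge, so the count from a fit with them is not given. For the difference between genotypes (20) the number was 17 with a pseudocount of 0.1, 9 with a filter at 5 FPKM, 53 with quantile normalization, 4 with the replicate block, 66 without both HKO libraries numbered 1, and 0 to 223 with single libraries left out. The 34 named genes of largest change kept their direction under each of these settings in which they were tested; all 34 passed with all 12 libraries, 30 with limma-voom or the length correction, 8 with the replicate block and 4 without a filter. The causes of these differences were not tested. Genes under 1 FPKM entered only the fit without a filter and the marker sums.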
